A study of Homo sapiens
Mus musculus with 17 samples.

Results

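Glycolysis and glucose handling in VM-CUB-1 tumours was followed through 35 human genes, all of them rows of the table of 23368 human gene symbols. They were a fixed list of names: 19 glycolytic enzymes, 5 transporters of glucose or monocarboxylates, 3 PFKFB regulators of phosphofructokinase, 3 pyruvate dehydrogenase kinases (PDK), and 5 phosphoglucomutases and pentose phosphate enzymes. All 35 passed the expression filter, an average level of 10 normalized counts or more across the 17 libraries. VM-CUB-1 is a human bladder cancer line, here grown as xenografts in Hsd:Athymic Nude-Foxn1nu mice, which lack a thymus, and described by the submitters as resistant to nintedanib. Combination tumours (n = 4) received alpelisib at 25 mg/kg and nintedanib at 40 mg/kg, alpelisib tumours (n = 4) alpelisib at 25 mg/kg, nintedanib tumours (n = 5) nintedanib at 40 mg/kg, and vehicle tumours (n = 4) 0.5% methylcellulose with 0.1% Tween80, all for 7 days. Alpelisib, also called BYL719, blocks the alpha catalytic subunit of PI3K, and nintedanib blocks receptors of VEGF, FGF and PDGF. Of the nintedanib libraries, 3 are titled responders and 2 non-responders, whereas the series description counts 2 responders and 3 non-responders; the titles were followed. All tumours come from 1 cell line, and nothing in the labels ties each tumour to a mouse of its own. The p-values therefore describe the spread among the libraries, which may be technical.

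Glucose enters cells through the SLC2A transporters and is trapped by hexokinase. It is then split and oxidized to pyruvate in the cytosol, and pyruvate is either reduced to lactate or passed to the mitochondria through pyruvate dehydrogenase, which the PDK enzymes switch off. PI3K and AKT signalling is known to promote glucose uptake and hexokinase activity, and hypoxia-inducible factor is known to raise transcription of most of these genes. Phosphofructokinase sets the pace of the pathway and answers to an activator made and removed by the PFKFB enzymes. The pentose phosphate branch draws sugar phosphates off for NADPH and ribose.

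Human reads recovered from the table ranged from 7429753 to 25654879 per library (median 20312801). The tumour epithelium markers EPCAM, KRT5, KRT14, KRT17, KRT8, KRT18, TP63 and CDH1 were all expressed, with a summed level, mostly of keratins, of 530696 to 1012079.9 normalized counts in combination tumours and 207129.8 to 406376 in vehicle tumours. None of the 8 passed by limma in that comparison, in which 6 had positive changes and EPCAM and CDH1 negative ones, with a median of 0.48 on the log2 scale. Reads were mapped to the human and mouse genomes separately, so that some host reads can enter the human table. Summed over 6 skeletal muscle markers the human table held 288 to 714 normalized counts in combination tumours and 154 to 793 in vehicle tumours. TNNT3 made up most of this, with means of 360 and 280. Of the 5 muscle markers tested, TNNT3 alone had a positive change in combination against vehicle (0.43), and 4 had negative ones. Over 5 erythroid markers that table held 34.0 to 103 in combination tumours, nearly all of it HBB, and 3.34 to 16.05 in vehicle tumours. Over PTPRC, PECAM1, COL1A1 and ADIPOQ it held 2479 to 6418 in combination tumours and 1680 to 5828 in vehicle tumours, nearly all of it COL1A1. PTPRC, PECAM1 and ADIPOQ averaged 8.36, 6.59 and 3.43 in combination and 1.38, 6.02 and 1.26 in vehicle tumours. The part of these cells in the results below was not tested. A tumour is a mixture, and fewer cells of a type and less RNA per cell cannot be told apart in such data. The library kit does not mark strand, and ALDOA, GAPDH, TPI1, PGK1, PGAM1, ENO1, PKM2 and LDHA have processed pseudogenes with which their reads may have been divided, so their levels are less certain.

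Combination tumours had the highest mean level of a majority of the genes, but no gene passed the test. Of the 35 genes, 29 had a positive change against vehicle and 6 a negative one, against 47.2% positive over all 14533 genes tested. On the mean log2 level of the treatments, 19 genes were highest in combination tumours, 11 in alpelisib, 2 in nintedanib and 3 in vehicle tumours, while 25 genes were lowest in vehicle tumours. Over all genes tested, 24.9% were highest in combination tumours and 36.0% lowest in vehicle tumours. By limma with Benjamini-Hochberg adjustment over all tested genes, 0 of 35 passed at an adjusted p under 0.05, where 0.317% of all genes were higher and 0.0413% lower. The count was 0 by edgeR as well, against 0.234% of all genes higher and 0.0413% lower. DESeq2 called 5 genes, all higher (ALDOA, TKT, GAPDH, ENO1 and PKM2), against 2.48% of all genes higher and 0.936% lower. At an unadjusted p under 0.05, limma gave 10 genes higher and 0 lower, against 11.2% and 6.89% of all genes. All 4 combination tumours lay above all 4 vehicle tumours for 7 genes, against 5.27% of all genes, and below them for BPGM alone, against 5.31%.

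**Figure D1:**
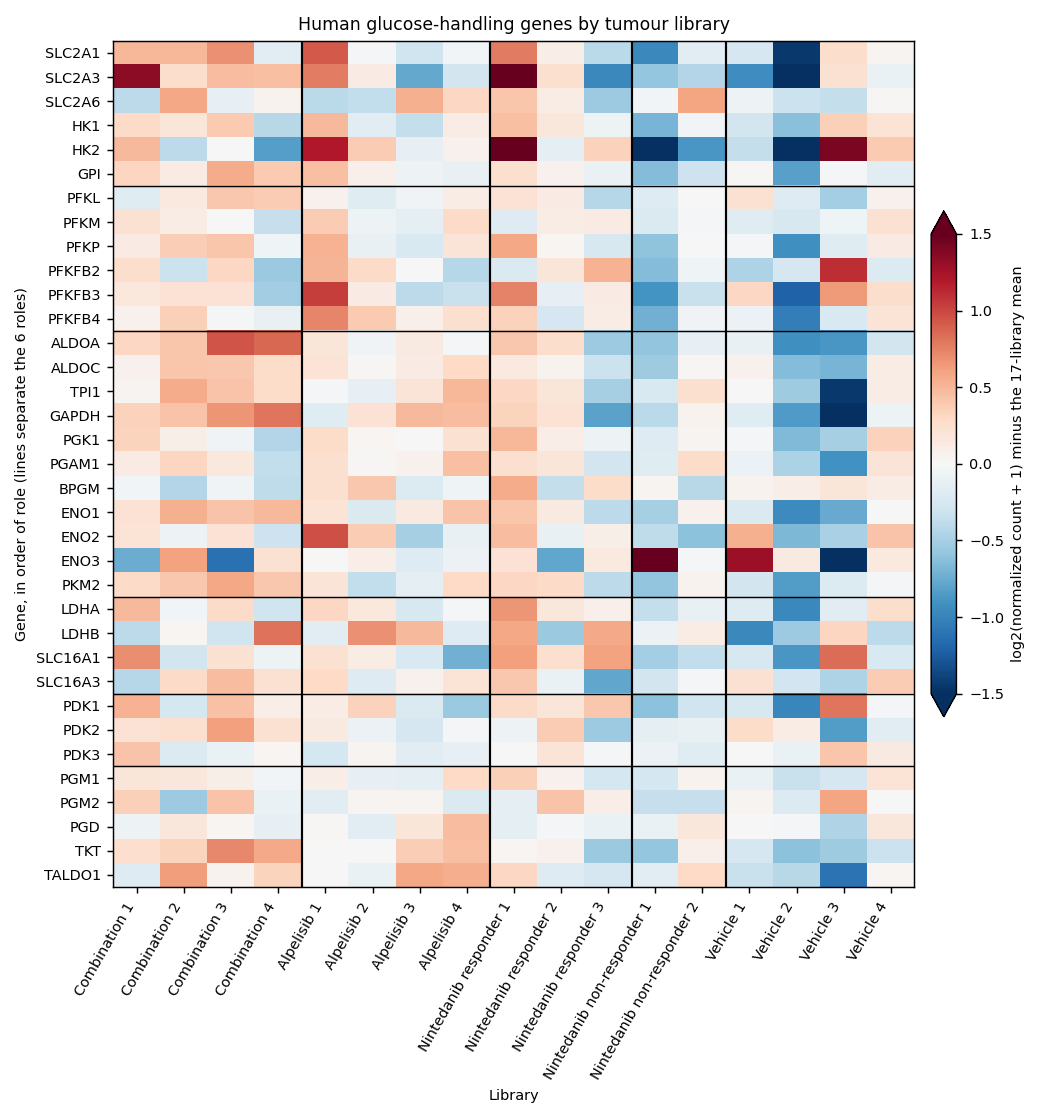
Level of each of the 35 genes (rows, in order of role) in each of the 17 libraries (columns, by group), as log2(normalized count + 1) minus the mean of that gene over the 17 libraries; red is above and blue below that mean, and colours saturate at the ends of the scale. Vehicle 2 is blue in nearly every row, and Vehicle 3 is blue for ALDOA, TPI1, GAPDH and TALDO1 but red for HK2, PFKFB2, SLC16A1 and PDK1.

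Against vehicle, the median change of the 35 genes was 0.31 on the log2 scale in combination tumours, 0.32 in alpelisib tumours and 0.17 in nintedanib tumours, beside -0.03, 0.02 and -0.00 over all genes tested (log2 fold changes from limma). The 3 comparisons share their vehicle libraries, so they are given side by side and not compared. By class, the median in combination tumours was 0.38 for glycolytic enzymes (16 of 19 positive), 0.27 for transporters (5 of 5), 0.02 for PFKFB regulators (2 of 3), 0.31 for PDK regulators (2 of 3) and 0.22 for phosphoglucomutase and pentose phosphate genes (4 of 5). In alpelisib tumours it was 0.34 for glycolytic enzymes (18 of 19), 0.20 for transporters (4 of 5), 0.11 for PFKFB regulators (3 of 3), 0.04 for PDK regulators (2 of 3) and 0.20 for the last class (4 of 5). In nintedanib tumours it was 0.27 for glycolytic enzymes (16 of 19), 0.24 for transporters (4 of 5), -0.09 for PFKFB regulators (1 of 3), 0.06 for PDK regulators (2 of 3) and 0.11 for the last class (4 of 5). Without Vehicle 2, the lowest of the 4 vehicle libraries for 21 of the 35 genes, the median of the 35 genes was 0.15 in combination, 0.13 in alpelisib and 0.04 in nintedanib tumours. Without Alpelisib 1 the alpelisib median was 0.20, and the nintedanib median was 0.064 without responder 1, 0.26 without non-responder 1 and 0.27 without Vehicle 4. With alpelisib 31 of 35 changes were positive, against 52% of all genes, and 0 of 35 genes passed by limma and by edgeR (0% of all genes by either). At an unadjusted p under 0.05, limma gave 8 higher and 0 lower, against 11.5% and 7.17% of all genes. DESeq2 called TKT, GAPDH and TALDO1 higher and none lower among the 17 genes to which it gave an adjusted p, against 16.4% and 0.794% of its 1008 genes. All alpelisib tumours lay above all vehicle tumours for ALDOA and TKT and below them for 0 genes, against 5.89% and 5.95% of all genes. With nintedanib 27 of 35 changes were positive, against 49.8% of all genes. The count of calls was 0 by limma and edgeR (0% of all genes). By DESeq2 it was 0 among the 17 genes with an adjusted p, against 1.29% higher and 0% lower of its 1008 genes. At an unadjusted p under 0.05, limma gave 0 genes, against 5.11% of all genes higher and 2.01% lower. None of the 35 genes separated the nintedanib from the vehicle tumours, against 0.819% of all genes higher and 0.509% lower.

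**Figure D2:**
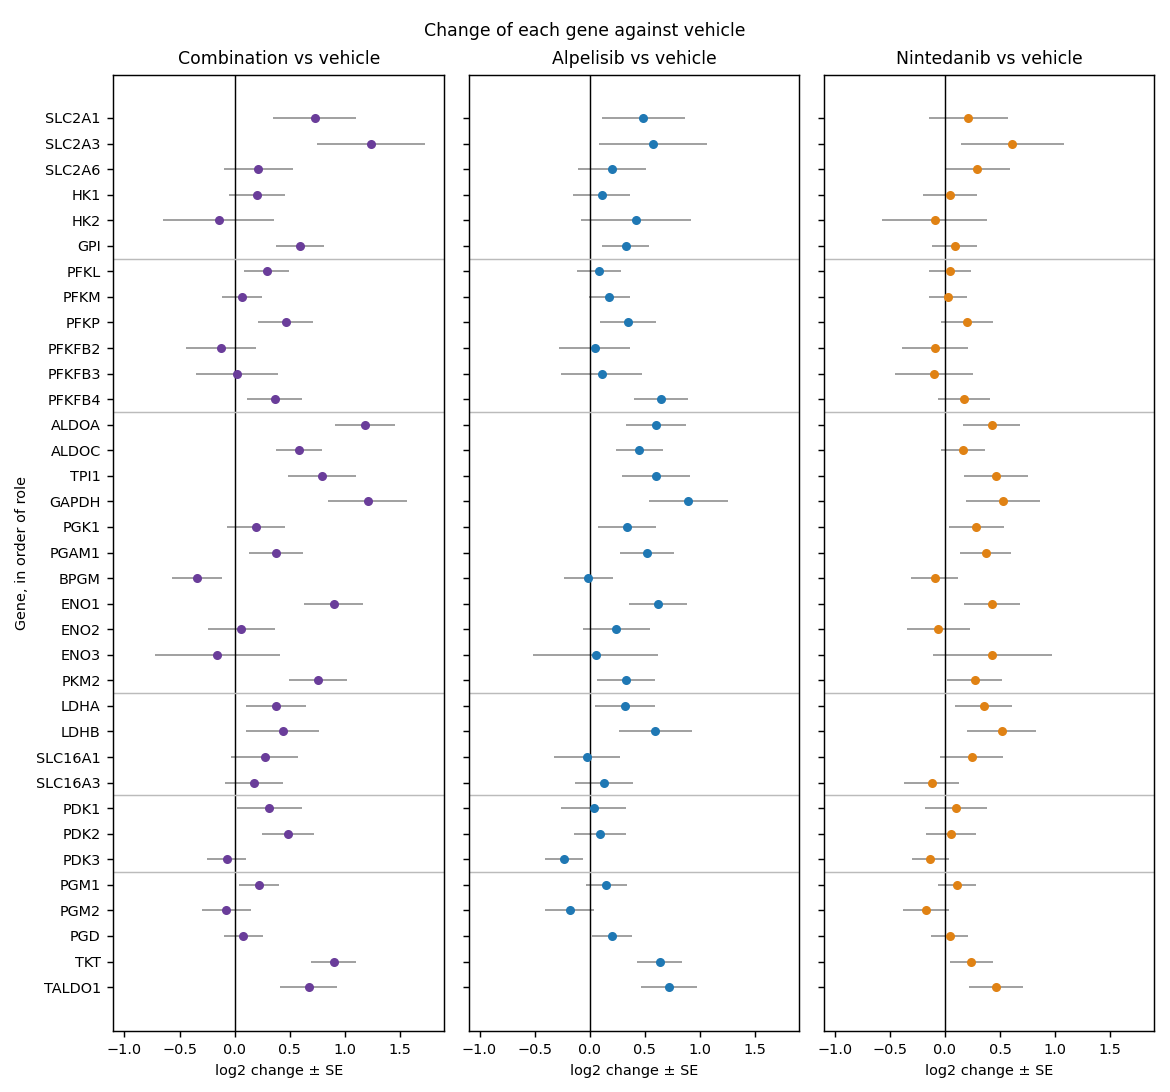
Change of each gene against vehicle (log2, points) with its standard error from limma (bars) in combination, alpelisib and nintedanib tumours; genes run down the page by role. In combination tumours SLC2A3, GAPDH and ALDOA stand farthest to the right, at 1.24, 1.21 and 1.18. PFKFB2, PFKFB3, ENO2 and ENO3 are among the genes that lie within their standard error of 0.

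Among the genes of uptake and trapping, the transporters SLC2A1 and SLC2A3 and the isomerase GPI had larger positive values in combination tumours than the hexokinases, and none passed by limma. SLC2A1, the ubiquitous glucose transporter GLUT1, had 35431, 35461, 40315 and 22440.4 normalized counts in combination tumours, 47524, 24568, 20389.7 and 24521 in alpelisib tumours, 43005, 26993 and 18964 in nintedanib responders, 12842 and 22314 in nintedanib non-responders, and 21064, 9227, 30269 and 25942 in vehicle tumours. Its highest value was in Alpelisib 1 and its lowest in Vehicle 2, and the groups overlapped. The change was 0.72 ± 0.38 in combination tumours, 0.48 ± 0.38 with alpelisib and 0.21 ± 0.36 with nintedanib (limma adjusted p = 0.318, 0.459 and 0.817). Without Vehicle 2 these were 0.36, 0.12 and -0.15, and without Alpelisib 1 the alpelisib value was 0.22. SLC2A3, the high-affinity transporter GLUT3, had 455, 215, 247 and 244 normalized counts in combination tumours, 305, 195, 105 and 148 in alpelisib tumours, 619, 211 and 90.7 in nintedanib responders, 119 and 132 in nintedanib non-responders, and 92.9, 57.9, 209 and 167 in vehicle tumours. All 4 combination tumours lay above all 4 vehicle tumours, and nintedanib responder 1 stood above every other library. Its change was 1.24 ± 0.49 in combination, 0.57 ± 0.49 in alpelisib and 0.61 ± 0.47 in nintedanib tumours (limma adjusted p = 0.2, 0.502 and 0.635). The alpelisib value was 0.24 without Vehicle 2 and 0.30 without Alpelisib 1, and the nintedanib value 0.28 without Vehicle 2 and 0.17 without responder 1. SLC2A6, a transporter of lysosomal membranes, was low throughout, with 26.3 to 59.2 normalized counts over the libraries.

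HK2, the inducible hexokinase of many tumours, was among the most variable of the 35 genes. It had 5193, 2817, 3704 and 2075 normalized counts in combination tumours, 8521, 4795, 3397 and 3852 in alpelisib tumours, 10661, 3359 and 4706 in nintedanib responders, 1287 and 2010.5 in nintedanib non-responders, and 2883, 1222, 9822 and 4848 in vehicle tumours. Single libraries of the nintedanib and vehicle groups spanned nearly the whole range, and Vehicle 3 was 8.03 times Vehicle 2. The change was -0.14 ± 0.50 in combination, 0.42 ± 0.50 in alpelisib and -0.09 ± 0.48 in nintedanib tumours (limma adjusted p = 0.897, 0.642 and 0.942), and its sign in combination tumours turned to 0.34 without Vehicle 3. HK1, the constitutive hexokinase, averaged 2452 ± 549 in combination and 2163 ± 644 in vehicle tumours (SD, n = 4 each). GPI, which interconverts the glucose and fructose phosphates, had 13545, 11784, 15836 and 14162 normalized counts in combination tumours, 14727, 11384, 10210.2 and 9993 in alpelisib tumours, 12701, 11316 and 10044 in nintedanib responders, 6878 and 8669 in nintedanib non-responders, and 10948, 6155, 10636 and 9676 in vehicle tumours. All 4 combination values exceeded all 4 vehicle values, and the lowest was again Vehicle 2. GPI had a change of 0.59 ± 0.21 in combination tumours (adjusted p = 0.173) and 0.33 ± 0.21 with alpelisib (adjusted p = 0.387), both by limma, and 0.09 ± 0.20 with nintedanib. The alpelisib value of GPI was 0.14 without Vehicle 2 and 0.20 without Alpelisib 1.

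**Figure D3:**
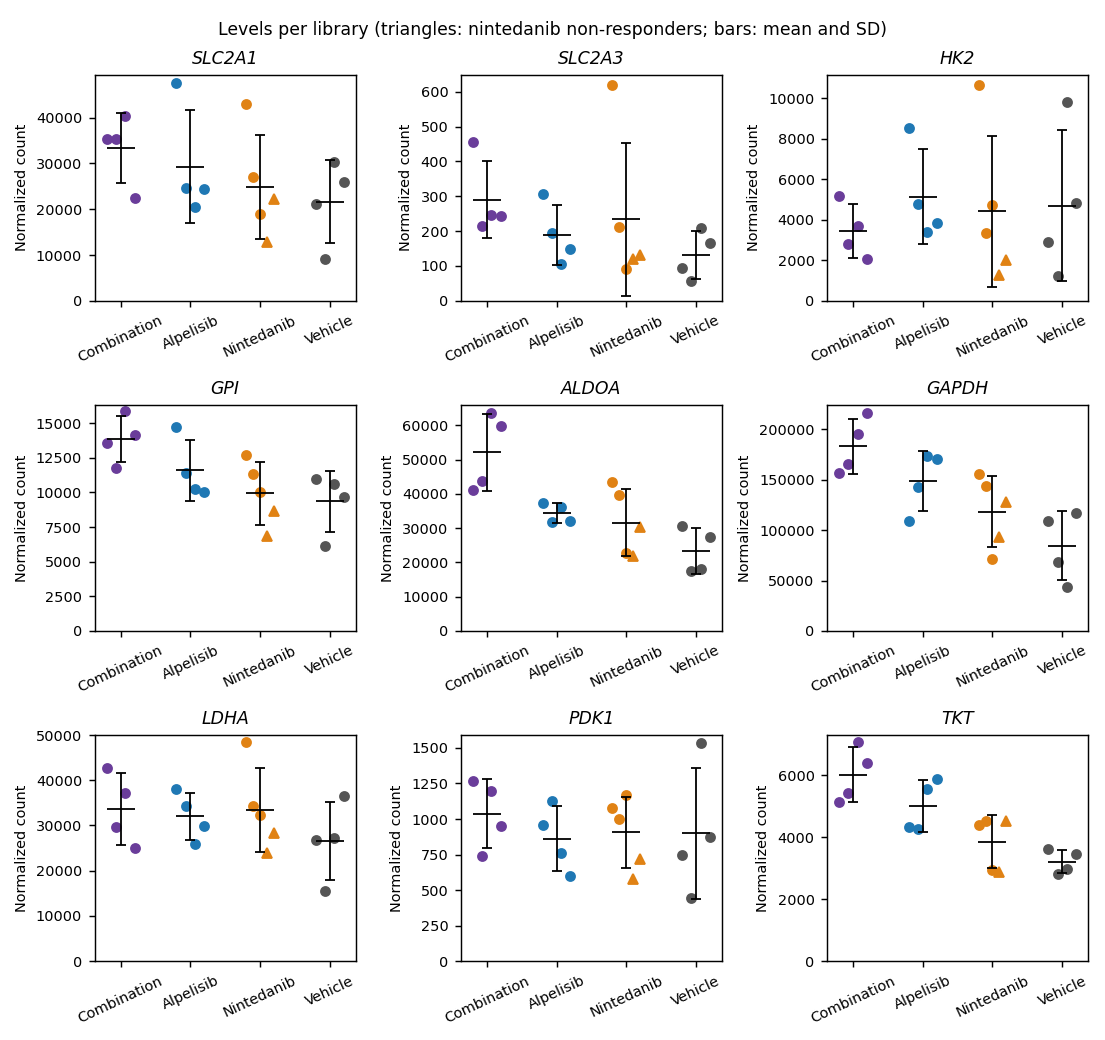
Normalized counts of 9 genes in each library (points; triangles are nintedanib non-responders), with the mean and SD of each treatment (black bars), on linear axes from 0. For ALDOA, GAPDH, TKT, GPI and SLC2A3 the combination tumours lie above all vehicle tumours, while HK2, LDHA and PDK1 overlap between all treatments.

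Phosphofructokinase and its PFKFB regulators had values between -0.12 and 0.46 in combination tumours, and none passed by limma. PFKP, the platelet-type phosphofructokinase, had 4123, 4871, 5029 and 3621 normalized counts in combination tumours, 5438, 3497, 3235 and 4326 in alpelisib tumours, 5633, 3851 and 3197 in nintedanib responders, 2487 and 3758 in nintedanib non-responders, and 3719, 1999, 3334 and 4106 in vehicle tumours. The groups overlapped, with Vehicle 2 lowest of all. PFKP had a change of 0.46 ± 0.25 in combination, 0.35 ± 0.25 in alpelisib and 0.20 ± 0.24 in nintedanib tumours (limma adjusted p = 0.341, 0.43 and 0.738). Without Vehicle 2 the PFKP values were 0.24, 0.12 and -0.022, and without Alpelisib 1 the alpelisib value was 0.20. The liver type PFKL and the muscle type PFKM had changes of 0.29 ± 0.20 and 0.06 ± 0.18 in combination tumours. PFKFB4, a bifunctional regulator known as hypoxia-inducible, had 1184, 1457, 1123 and 1047 normalized counts in combination tumours, 1881, 1486, 1192 and 1335 in alpelisib tumours, 1438, 949 and 1226 in nintedanib responders, 688 and 1089 in nintedanib non-responders, and 1065, 553, 967 and 1304 in vehicle tumours. Here alpelisib tumours, not combination tumours, had the highest mean, 1473 ± 297 against 972 ± 313 in vehicle tumours (SD, n = 4 each), with 1 vehicle library inside the alpelisib range. The change was 0.65 ± 0.25 with alpelisib, 0.36 ± 0.25 with the combination and 0.17 ± 0.23 with nintedanib (limma adjusted p = 0.228, 0.442 and 0.772). Without Vehicle 2 these PFKFB4 values were 0.40, 0.11 and -0.077. PFKFB3, the form with the strongest kinase activity, had 0.02 ± 0.37 and PFKFB2, a target of AKT in the heart, -0.12 ± 0.32 in combination tumours, neither different from 0 beyond its standard error.

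Lower glycolysis was taken as 11 genes, those of the aldolases, pyruvate kinase and the enzymes between them. It held 4 of the 7 genes whose combination tumours all lay above all vehicle tumours, ALDOA, GAPDH, ENO1 and PKM2. It also held BPGM, whose combination tumours all lay below. Over all genes tested, 5.27% lay wholly above and 5.31% wholly below. Whether this part of the pathway differed from the rest was not tested. ALDOA, the main aldolase, which splits the hexose bisphosphate, had 41052, 43899, 63689 and 59829 normalized counts in combination tumours, 37361, 31796, 36306 and 32242 in alpelisib tumours, 43521, 39612 and 22666 in nintedanib responders, 21854 and 30396 in nintedanib non-responders, and 30571, 17406, 18065 and 27323 in vehicle tumours. Every combination tumour lay above every alpelisib and every vehicle tumour, and every alpelisib tumour lay above every vehicle tumour. ALDOA averaged 52117 ± 11304 in combination tumours, 34426 ± 2819 with alpelisib, 31609.7 ± 9779 with nintedanib and 23341 ± 6613 with vehicle (SD, n = 4, 4, 5 and 4). Against vehicle its change was 1.18 ± 0.27 in combination tumours, short of the threshold by limma (adjusted p = 0.0744) and past it by DESeq2 (adjusted p = 0.00088). With alpelisib alone it was 0.60 ± 0.27 (adjusted p = 0.255) and with nintedanib alone 0.42 ± 0.26 (adjusted p = 0.619), both by limma. GAPDH, which makes the NADH of glycolysis and is often taken as a reference gene, had 156427, 165663, 195135 and 215858 normalized counts in combination tumours, 108978, 143043, 173256 and 170541 in alpelisib tumours, 155447, 143466 and 70928 in nintedanib responders, 93163 and 128394 in nintedanib non-responders, and 108970.3, 68774, 43800.3 and 117517 in vehicle tumours. The combination tumours lay above all nintedanib and all vehicle tumours, and Vehicle 3 had the lowest level of the 17 libraries. GAPDH had a change of 1.21 ± 0.36 in combination, 0.89 ± 0.36 in alpelisib and 0.53 ± 0.34 in nintedanib tumours (limma adjusted p = 0.122, 0.233 and 0.619), and without Vehicle 3 0.92 in combination and 0.24 in nintedanib tumours.

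The other enzymes of lower glycolysis ranged from -0.34 to 0.90 in combination tumours, and none passed by limma. In combination tumours the change was 0.90 ± 0.27 for ENO1, the main enolase (limma adjusted p = 0.122), 0.79 ± 0.31 for the triose isomerase TPI1 (adjusted p = 0.195), 0.75 ± 0.26 for pyruvate kinase, listed as PKM2 (adjusted p = 0.159), and 0.58 ± 0.21 for ALDOC, the brain aldolase (adjusted p = 0.171). ENO1 averaged 44541 ± 4120.5 in combination and 24723 ± 7538 in vehicle tumours, and PKM2 52179.7 ± 4389.7 in combination and 31507 ± 6936 in vehicle tumours (SD, n = 4 each). Every combination tumour lay above every vehicle tumour for both genes. The kinase PGK1 and the mutase PGAM1 had lower values, 0.19 ± 0.26 and 0.38 ± 0.24, and ENO2, the neuronal enolase, 0.06 ± 0.30. BPGM, which makes the oxygen-affinity regulator of red cells, was the only gene of the 35 whose combination values (mean 129 ± 18.8) all lay below the vehicle values (mean 162 ± 6.18; SD, n = 4 each), with a change of -0.34 ± 0.22 (limma adjusted p = 0.424). The erythroid marker HBB was higher by 3.81 in the same comparison and passed by limma (adjusted p = 0.0374), at a mean of 53.3 normalized counts in combination and 5.73 in vehicle tumours. Its part in these results was not tested.

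ENO3, the muscle enolase, and BPGM were the only genes with more mouse than human reads. Mouse reads made up 74.1% of the reads of BPGM and 70.4% of those of ENO3, summed over libraries, against a median of 11.2% over the 35 genes. ENO3 had 29.3, 76.4, 22.4 and 58.8 normalized counts in combination tumours, 49.7, 53.4, 43.7 and 46.9 in alpelisib tumours, 58.3, 28.8 and 55.4 in nintedanib responders, 213 and 49.4 in nintedanib non-responders, and 123, 55.02, 12.04 and 55.4 in vehicle tumours. Its highest values were in nintedanib non-responder 1 and Vehicle 1. In mouse reads the summed level of 6 skeletal muscle markers was also highest there, at 31441 and 10414 normalized counts, against 757 to 6198 in the other 15 libraries. Its change in combination tumours was -0.16 ± 0.57, smaller than its standard error.

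Lactate and monocarboxylate genes overlapped between treatments. LDHA, the lactate dehydrogenase subunit that favours lactate formation, had 42800.5, 29683, 37248 and 24942 normalized counts in combination tumours, 37991, 34253, 25862 and 29943 in alpelisib tumours, 48379, 34354 and 32266 in nintedanib responders, 23849.7 and 28267 in nintedanib non-responders, and 26843, 15602, 27264 and 36607 in vehicle tumours. All treatments overlapped, with nintedanib responder 1 highest and Vehicle 2 lowest. LDHA had a change of 0.37 ± 0.27 in combination, 0.32 ± 0.27 in alpelisib and 0.35 ± 0.26 in nintedanib tumours (limma adjusted p = 0.476, 0.504 and 0.629). Without Vehicle 2 the LDHA values were 0.14, 0.083 and 0.12. The combination value was 0.25 without Combination 1, the alpelisib value 0.49 without Vehicle 4 and the nintedanib value 0.21 without responder 1. LDHB, the subunit that favours pyruvate, had 3856, 5190.2, 4110.2 and 8925 normalized counts in combination tumours, 4509.5, 8112, 7074 and 4420.3 in alpelisib tumours, 7596, 3454 and 7499.8 in nintedanib responders, 4757 and 5449 in nintedanib non-responders, and 2593, 3484, 6345 and 3858 in vehicle tumours. High and low libraries were mixed in every group, and Combination 4 stood above the other 3 combination tumours. The change of LDHB was 0.43 ± 0.33 in combination, 0.59 ± 0.33 in alpelisib and 0.52 ± 0.31 in nintedanib tumours (limma adjusted p = 0.497, 0.316 and 0.619). In combination tumours the LDHB value was 0.17 without Combination 4, 0.24 without Vehicle 1 and 0.67 without Vehicle 3, and with nintedanib 0.33 without Vehicle 1. The importer SLC16A1 (MCT1) and the lactate exporter SLC16A3 (MCT4) had 0.27 ± 0.30 and 0.17 ± 0.26 in combination tumours.

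Of the PDK enzymes, which phosphorylate and inactivate pyruvate dehydrogenase, PDK2 had the largest value in combination tumours, and none of the 3 passed by limma in any comparison. PDK2, the widely expressed form, had 403, 410.1, 532 and 407 normalized counts in combination tumours, 378, 325, 289.7 and 340.5 in alpelisib tumours, 329, 452 and 237 in nintedanib responders, 314 and 321 in nintedanib non-responders, and 418, 373, 193 and 310.0 in vehicle tumours. Every combination tumour was above every alpelisib tumour, but Vehicle 1 lay within the combination range. Its change was 0.48 ± 0.24 in combination, 0.09 ± 0.24 in alpelisib and 0.06 ± 0.23 in nintedanib tumours against vehicle (limma adjusted p = 0.291, 0.837 and 0.925). Without Vehicle 3 the PDK2 values were 0.25, -0.14 and -0.17. PDK1, the classical hypoxia-induced form, had 1269, 737, 1194 and 948 normalized counts in combination tumours, 955, 1126, 761 and 599.8 in alpelisib tumours, 1074, 997 and 1172 in nintedanib responders, 575 and 717 in nintedanib non-responders, and 746, 446, 1537 and 871 in vehicle tumours. Vehicle 3 and Vehicle 2 held the highest and the lowest value of all 17 libraries. PDK1 had a change of 0.31 ± 0.29 in combination, 0.04 ± 0.29 in alpelisib and 0.10 ± 0.28 in nintedanib tumours (limma adjusted p = 0.591, 0.955 and 0.89). The PDK1 values were 0.021, -0.26 and -0.19 without Vehicle 2, 0.61 in combination, 0.34 in alpelisib and 0.41 in nintedanib tumours without Vehicle 3, and 0.20 in combination tumours without Combination 1. PDK3 was among the least variable of the 35 genes, with 729.6, 469.6, 508 and 554 normalized counts in combination tumours, 453, 558, 488 and 500.3 in alpelisib tumours, 541, 621 and 537 in nintedanib responders, 509.8 and 479 in nintedanib non-responders, and 541, 507, 724 and 595 in vehicle tumours. The groups overlapped, and its change was -0.07 ± 0.17, -0.23 ± 0.17 and -0.13 ± 0.17 in the same order (limma adjusted p = 0.846, 0.439 and 0.752).

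Beyond the 35 genes, 52 further genes of glucose handling were in the table, of which 42 passed the filter. By limma 0 passed in any of the 10 comparisons, with 6 higher and 2 lower at an unadjusted p under 0.05 in combination against vehicle. These are 19% of the 42, near the 18.1% of all genes tested. Their median change was 0.07 in combination, 0.15 in alpelisib and 0.03 in nintedanib tumours. The smallest p over the comparisons belonged to PDK4, the PDK form known as a FOXO target in fasting, which had 57.5, 38.6, 99.7 and 73.2 normalized counts in combination tumours, 16.97, 72.1, 31.7 and 44.5 in alpelisib tumours, 14.8, 21.99 and 3.46 in nintedanib responders, 12.99 and 3.29 in nintedanib non-responders, and 21.9, 17.2, 36.1 and 15.4 in vehicle tumours. All combination tumours and all but 1 alpelisib tumour lay above every nintedanib tumour, and all combination tumours lay above every vehicle tumour. Of all genes tested, 0.317% had combination wholly above nintedanib tumours and 5.27% wholly above vehicle tumours. PDK4 averaged 67.3 ± 25.8 in combination, 41.3 ± 23.4 in alpelisib, 11.3 ± 7.98 in nintedanib and 22.6 ± 9.39 in vehicle tumours (SD, n = 4, 4, 5 and 4). Its change was 2.70 ± 0.51 in combination against nintedanib, with an adjusted p = 0.676 by limma, 0.768 by edgeR and 0.00204 by DESeq2. Over both groups with alpelisib against both without it, the change was 1.72 ± 0.37 (adjusted p = 0.144 by limma and 0.00132 by DESeq2). PDP2, a phosphatase that reactivates pyruvate dehydrogenase, had the next smallest p. It had 237, 275, 220.1 and 218 normalized counts in combination tumours, 350.3, 359, 281 and 329 in alpelisib tumours, 314, 281 and 491 in nintedanib responders, 359 and 319 in nintedanib non-responders, and 355, 358, 397 and 452 in vehicle tumours. Every combination tumour lay below every tumour of the other treatments, with a change of -0.71 ± 0.19 against vehicle (adjusted p = 0.101 by limma and 0.0211 by DESeq2). Of all genes tested, combination tumours lay wholly below vehicle for 5.31%, below alpelisib for 1.55% and below nintedanib tumours for 0.908%. PDK4 and PDP2 were picked for their small p, so their separation is not independent of that choice.

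In the pentose phosphate branch, the transketolase and the transaldolase of the non-oxidative arm had the largest values of their class, and neither passed by limma. TKT, transketolase, had 5148, 5431, 7086 and 6400.0 normalized counts in combination tumours, 4324, 4277, 5560.4 and 5891 in alpelisib tumours, 4401, 4519 and 2935 in nintedanib responders, 2887 and 4528 in nintedanib non-responders, and 3607, 2812, 2989 and 3452 in vehicle tumours. The combination tumours lay above all nintedanib and all vehicle tumours, and the alpelisib tumours lay above all vehicle tumours. TKT averaged 6016 ± 892 in combination, 5013 ± 834 in alpelisib, 3854 ± 862 in nintedanib and 3215 ± 376 in vehicle tumours (SD, n = 4, 4, 5 and 4). Its change against vehicle was 0.90 ± 0.20 in combination tumours (adjusted p = 0.0705 by limma, the smallest of the 35 genes, and 0.00267 by DESeq2), 0.63 ± 0.20 with alpelisib (0.21 and 0.0295) and 0.24 ± 0.19 with nintedanib (0.649 by limma). Leaving out single libraries moved the combination change between 0.82 and 0.97. TALDO1, transaldolase, had 3962, 6996, 4717 and 5733 normalized counts in combination tumours, 4530.1, 4238, 6749.9 and 6626 in alpelisib tumours, 5611, 3968 and 3808 in nintedanib responders, 4014 and 5589 in nintedanib non-responders, and 3582, 3388, 2094 and 4611 in vehicle tumours. Vehicle 3 was the lowest library, and the groups overlapped. The change of TALDO1 was 0.67 ± 0.26 in combination, 0.72 ± 0.26 in alpelisib and 0.46 ± 0.24 in nintedanib tumours (limma adjusted p = 0.189, 0.22 and 0.619), and 0.24 with nintedanib without Vehicle 3. PGD, of the oxidative arm, had 0.08 ± 0.18 in combination tumours, and the phosphoglucomutases PGM1 and PGM2, which link glycogen and nucleosides to the pathway, 0.22 ± 0.18 and -0.08 ± 0.22.

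Adding nintedanib to alpelisib and alpelisib to nintedanib asks what each drug contributes to the pair. Combination against alpelisib gave 22 positive changes of 35 (49.7% of all genes) with a median of 0.09, and combination against nintedanib 28 (51.3% of all genes) with a median of 0.15. By limma, edgeR and DESeq2, 0 of 35 genes passed in either (at most 0.00688% of all genes by any of these tools). At an unadjusted p under 0.05, ALDOA alone was higher against alpelisib and 0 genes lower, against 1.29% and 3.17% of all genes by limma. Against nintedanib it was 4 genes higher (GPI, ALDOA, ALDOC and TKT) and 0 lower, against 1.28% and 2.55% of all genes. ALDOA had 0.58 ± 0.27 against alpelisib and 0.75 ± 0.26 against nintedanib, TKT 0.66 ± 0.19 against nintedanib, and HK2 -0.56 ± 0.50 against alpelisib. Groups did not overlap for ALDOA and PDK2 in combination above alpelisib, against 0.86% of all genes, and for GAPDH and TKT in combination above nintedanib, against 0.317%. None of the 35 lay wholly below, against 1.55% and 0.908% of all genes. The departure from additivity, combination plus vehicle minus both single drugs, had a median of -0.07 over the 35 genes and was past an unadjusted p of 0.05 for 0 of them by limma, against 2.42% of all genes higher and 4.42% lower. Leaving out single libraries moved that median between -0.18 and 0.09, above 0 without nintedanib responder 1 and without Vehicle 2. It moved the median against alpelisib between 0.045, without Alpelisib 2, and 0.14, and that against nintedanib between 0.046, without nintedanib non-responder 1, and 0.29, without nintedanib responder 1. Alpelisib against nintedanib had a median of 0.14 (0.03 without Alpelisib 1), with 27 of 35 positive (53.7% of all genes) and 0 at an unadjusted p under 0.05 by limma (0.839% of all genes higher and 0.826% lower). None of the 35 separated those groups, against 0.406% of all genes higher and 0.372% lower. Pooling both groups with alpelisib against both without it gave a median of 0.18 and 10 genes higher and 0 lower at an unadjusted p under 0.05, against 9.55% and 5.53% of all genes, with 0 past the adjusted threshold by limma and edgeR and 3 by DESeq2 (TKT, ALDOA and GAPDH, all higher, against 0.73% of all genes higher and 0.282% lower). TKT had 0.65 ± 0.14 there (adjusted p = 0.148 by limma and 0.00471 by DESeq2). Pooling both groups with nintedanib against both without it gave a median of 0.15 and 0 genes past the adjusted threshold by limma and edgeR (0% of all genes) and by DESeq2 (0.132% higher and 0.0439% lower). ALDOA alone, at 0.50 ± 0.19, had an unadjusted p under 0.05 by limma, against 2.83% of all genes higher and 2.26% lower.

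Within nintedanib tumours, the 3 responders were compared with the 2 non-responders. Of the 35 genes 29 had a positive change (45.7% of all genes), with a median of 0.27, and 0 passed by limma, edgeR and DESeq2 (0% of all genes by any). All 3 responders lay above both non-responders for HK2, GPI, PFKFB3, ENO2, LDHA, SLC16A1, PDK1, PDK3 and PGM2, which is 9 genes, against 6.85% of all genes. They lay below both for 0 of the 35, against 7.66% of all genes. HK2 had a change of 1.78 ± 0.65, and averaged 6242 ± 3886 in responders (SD, n = 3) and 1649 ± 512 in non-responders (SD, n = 2; limma adjusted p = 0.999). SLC16A1 had 0.93 ± 0.39, and HK2 and SLC16A1 were the 2 genes with an unadjusted p under 0.05 (by limma, 1.2% of all genes higher and 0.427% lower). With the series description dividing the same 5 tumours differently, this comparison rests on the titles alone. The median was 0.14 without responder 1, 0.12 without non-responder 1 and 0.47 without non-responder 2. Nintedanib responder 1 was the highest and non-responder 1 the lowest of the 5 in the median of the 35 genes. The median of 14 hypoxia genes, named below, had the same extremes, at 1.05 and -0.55 relative to their 17-library mean.

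The libraries of 1 group differed among themselves. The within-group SD of the 35 genes had a median of 0.37 on the log2 scale, against 0.39 over all genes tested. ENO3, HK2 and SLC2A3 varied most, at 0.93, 0.84 and 0.81, and PDK3, PGD and PGM1 least, at 0.20, 0.21 and 0.22. Among vehicle tumours, Vehicle 2 was lowest for 21 of the 35 genes, Vehicle 3 for 11 and Vehicle 1 for 3. Vehicle 3 was also highest for 12 genes, among them SLC2A1, HK2, PFKFB2, PFKFB3, SLC16A1 and PDK1, and Vehicle 4 for 16. Vehicle 2 stood at -0.67 for glycolytic enzymes, -0.88 for transporters and -1.03 for PFKFB regulators, as medians of log2 deviations from the 17-library mean. Vehicle 3 stood at -0.49, 0.22 and 0.64 for the same classes.

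Hypoxia genes and possible signs of RNA quality also differed in these libraries. The 14 hypoxia genes were CA9, ADM, NDRG1, EGLN3, EGLN1, BNIP3, ANKRD37, KDM3A, VEGFA, P4HA1, DDIT4, HILPDA, MXI1 and ANGPTL4. Their median deviation was -0.92 in Vehicle 2, its lowest value, and -0.06 in Vehicle 3. That of 82 ribosomal protein genes was -1.64 in Vehicle 3, also its lowest, and -0.35 in Vehicle 2. In mouse reads, Rn45s and Lars2, which collect ribosomal RNA, took 72.9% of Vehicle 3, 60.1% of Combination 4 and 1.73% to 44.1% of the other libraries. The ribosomal protein deviation did not follow that share in every library. It was 0.475 in Combination 4 and 0.671 in Alpelisib 3 (share 44.1%). In Vehicle 1 and Vehicle 4 it was -0.372 and -0.29, at shares of 3.00% and 2.05%. Vehicle 3 had the fewest human reads of the 17 libraries. Against vehicle, ribosomal protein genes had a median change of 0.885 in combination, 0.995 in alpelisib and 0.731 in nintedanib tumours, and the hypoxia genes 0.39, 0.43 and 0.14. With the combination 11 hypoxia genes were higher and 3 lower, from -0.43 for VEGFA to 1.54 for ANGPTL4. By limma 0 of the 14 passed in any of the 3 comparisons. At an unadjusted p under 0.05 it was 21.4%, 28.6% and 0% of them, against 18.1%, 18.6% and 7.12% of all genes. The part of hypoxia and RNA quality in the differences above was not tested. Without both Vehicle 2 and Vehicle 3, which leaves 2 vehicle libraries, the median of the 35 genes was 0.15 in combination, 0.07 in alpelisib and -0.06 in nintedanib tumours, and 0 of 35 genes passed by limma in each.

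**Figure D4:**
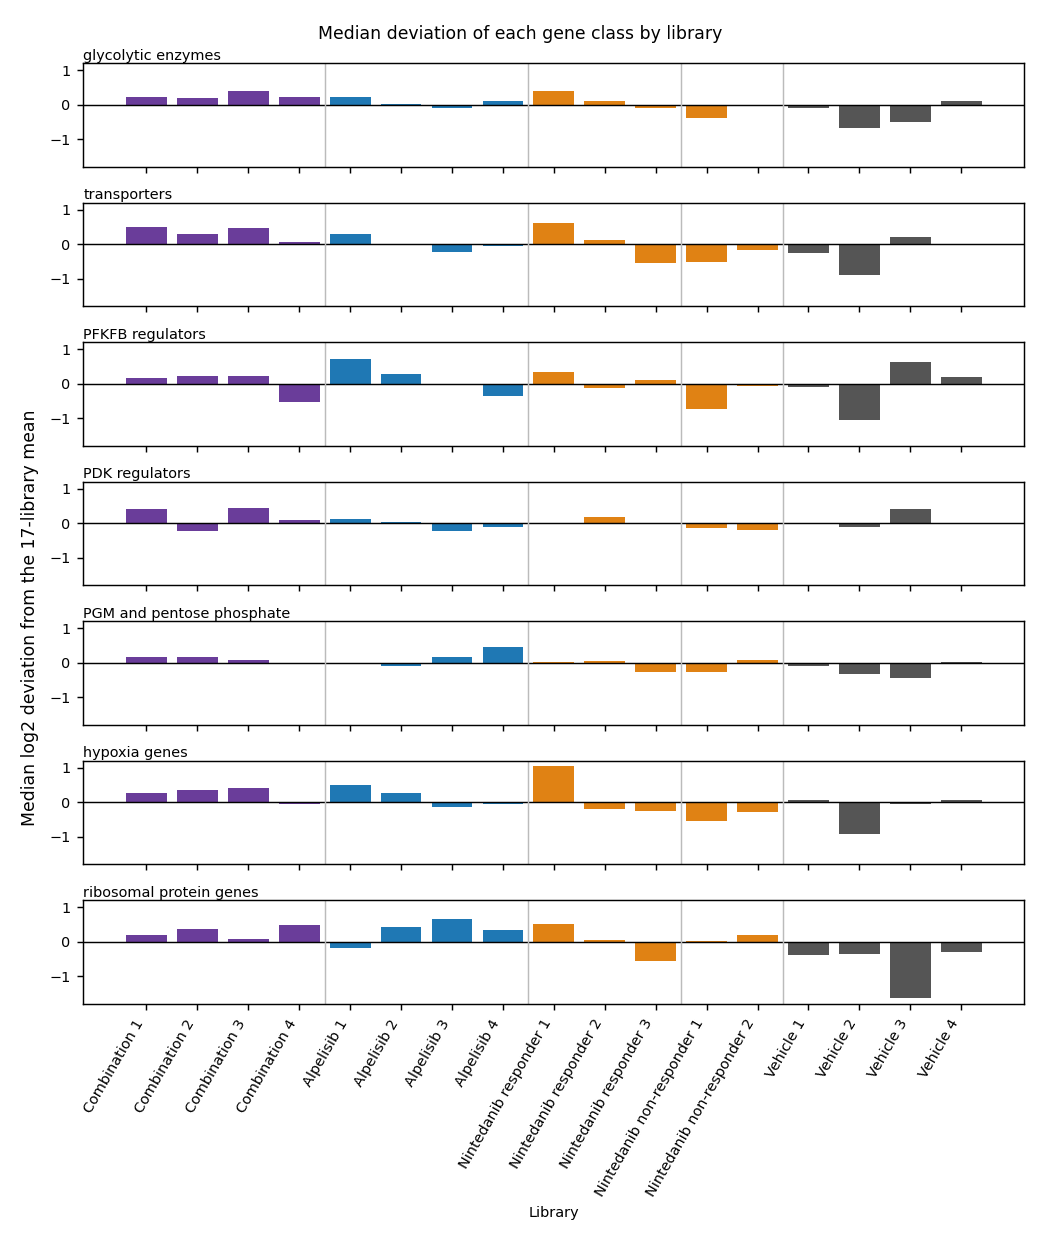
Median log2 deviation from the 17-library mean in each library for the 5 classes of glucose-handling genes, for 14 hypoxia genes and for 82 ribosomal protein genes; bars are coloured by treatment. Vehicle 2 is low for glycolytic enzymes, transporters, PFKFB regulators and hypoxia genes, at -0.67, -0.88, -1.03 and -0.92, and Vehicle 3 is low for glycolytic enzymes and ribosomal protein genes, at -0.49 and -1.64.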

How the data were processed

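RNA of 17 xenograft tumours was measured. The polyA libraries (TruSeq RNA v2) gave paired-end reads on a NextSeq500, per the labels' protocols. Per the submitters' processing notes, Bowtie, TopHat and DESeq2 were used with the builds hg19 and mm10; for versions, counter, annotation and strand setting, nothing is given in the sources used here. Deposited values are normalized counts, a signal per gene that the authors obtained by scaling each library. Whole reads were recovered from the human table: 100% of values lay within 0.001 of a whole number.

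The deposited values, as log2(value + 1), were fitted with limma 3.58.1 (trend) in R 4.3.3, with a mean for each of 5 groups, over the 14533 genes averaging 10 normalized counts or more, and p-values were adjusted over all of them (Benjamini-Hochberg, threshold 0.05). Fold changes of low genes are understated on this scale. The 35 genes and all gene lists were chosen with earlier results of these data known. The values in every library were given for the 2 genes of each role with the smallest p against vehicle, for SLC2A1, HK2, LDHA and PDK1, and for ENO3, which was added after its values were seen. Of the further genes of glucose handling, the 2 with the smallest p were named. The recovered reads were also tested with edgeR 4.0.16 (quasi-likelihood) and DESeq2 1.42.0. Other alternatives were TMM scaling, pseudocounts of 0.5 and 5, no filter and a minimum mean of 50, each library left out, and a replicate block. Leaving out Vehicle 2 and Vehicle 3 together was chosen after seeing the data. Groups follow the titles. Replicate numbers were not taken as pairs. Libraries of a group were checked for copies and none was found (lowest chi-square per gene 18.9 over 22 pairs). The fit was also run on simulated counts, with the same spread setting for all genes and no library effects beyond depth. These tumours differ from that setting, so the run does not show how the fit behaves on them. Of the 35 symbols, 34 matched RefSeq by symbol and PKM2 by synonym (PKM). Promoter and protein sequences were not used here.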

Additional observations from a re-analysis of the deposited data

Results flagged for a closer look

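In 72 combinations of a gene given in every library and a group of 4 or 5 tumours, 5 held a library far from the others of its group. Chance gives about 1 in 20 for a single combination. The combinations are not independent, and ENO3 was added after its values were seen, so the 5 cannot be set against that rate. SLC2A1 had 47524 normalized counts in Alpelisib 1, above the other 3 alpelisib tumours. SLC2A3 had 455 normalized counts in Combination 1, above the other 3 combination tumours. SLC2A3 also had 619 normalized counts in nintedanib responder 1, above the other 4 nintedanib tumours. PDK2 had 532 normalized counts in Combination 3, above the other 3 combination tumours. ENO3 had 213 normalized counts in nintedanib non-responder 1, above the other 4 nintedanib tumours. The causes were not tested.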

How the results depend on the processing

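Over the alternative fits, each comparison in each fit gave a value, 193 in all. The count of the 35 genes past the adjusted threshold was 0 in 190 of them. With DESeq2 it was 3 for alpelisib, 5 for the combination and 3 for both alpelisib groups pooled. For alpelisib and for nintedanib against vehicle, DESeq2 gave an adjusted p to only 17 of the 35 genes. With the replicate block it was 0 in all 10 comparisons, and PDK2 with nintedanib took -0.003, so the block changed no call. Across groups, 7 of 29 pairs of same-numbered libraries had a correlation of deviations over 0.1, against 33 of 85 pairs with different numbers. In 190 of 193 alternative values the median change of the 35 genes moved by less than 0.212 on the log2 scale. That limit is the within-group SD of the library medians. It is wider than the medians for nintedanib (0.172) and the departure from additivity (-0.075) are far from 0, so even a change of sign can stay within it. Without Vehicle 2 and Vehicle 3 the median change was 0.071 for alpelisib, -0.062 for nintedanib and 0.17 for the departure from additivity. Leaving out single libraries, it ranged from 0.15 to 0.38 for the combination, 0.13 to 0.40 for alpelisib and 0.04 to 0.27 for nintedanib, and no gene passed by limma (smallest adjusted p = 0.0539, ALDOA and TKT with the combination).

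Of 859 alternative values of single genes, 818 were counted as keeping their direction and side of the threshold, 35 reversed and 6 passed it, all 6 by DESeq2. Values without an adjusted p by DESeq2 were counted by direction alone, as for SLC2A3, PFKFB4, PDK2 and PDK3 with alpelisib and with nintedanib. Only those of the 35 genes given in every library were followed, without ENO3. ENO1 and PKM2, which DESeq2 called with the combination, are therefore not among the 6. PDK1 reversed to -0.12 with alpelisib and -0.073 with nintedanib by edgeR, and to -0.06 and -0.03 by DESeq2. Without Vehicle 2 and Vehicle 3, PDK2 was -0.12 with alpelisib, and with nintedanib SLC2A1 was -0.029, GPI -0.085, PFKP -0.10, PFKFB4 -0.17 and PDK2 -0.15. Leaving out single libraries, HK2 ranged from -0.66 to 0.34 with the combination, -0.10 to 0.90 with alpelisib and -0.61 to 0.39 with nintedanib, and PDK3 from -0.20 to 0.028 with the combination. PDK1 ranged from -0.26 to 0.34 with alpelisib and -0.19 to 0.41 with nintedanib, and PDK2 from -0.14 to 0.24 and from -0.17 to 0.20. With nintedanib SLC2A1 ranged from -0.15 to 0.42, GPI from -0.10 to 0.21, PFKP from -0.022 to 0.34 and PFKFB4 from -0.077 to 0.34. The cause was not tested. Groups of 2 to 5 tumours and a within-group SD of 0.37 on the log2 scale limit what could be detected.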

Other observations

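The share of mouse reads among all reads of a gene, summed over the 17 libraries, differed widely between the 35 genes. Reads were mapped to the human and mouse genomes separately, so a read that matches both can count in both, and the shares are approximate. It was 0.146% for ENO1, the lowest, and 74.1% for BPGM, the highest, with a median of 11.2%. Each share rests on the 1 mouse symbol matched to the gene. For ENO1 it ranged from 0.072% to 0.25% over the libraries, and the reason for this low share was not tested. SLC2A6 had 48.2%.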
